A study of Homo sapiens with 4 samples.

Results

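The cytosolic ribosomal protein genes were taken from the arrays by symbol. Members are the non-control probes whose gene name is RPL or RPS followed by a number with an optional paralog suffix, one of the stalk proteins RPLP0 to RPLP2, or RPSA. This rule gave 85 of 27193 gene names, measured by 160 of 34127 probes on 187 spots. The genes were 77 that encode the proteins of the common ribosome and 8 related copies (RPL3L, RPL7L1, RPL10L, RPL22L1, RPL26L1, RPL36AL, RPL39L and RPS27L). By name, 53 belong to the large (60S) and 32 to the small (40S) subunit, and 39 were measured by several probes, at most 9.

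All arrays were made from THP1, a human acute monocytic leukemia cell line that carries the MLL-AF9 fusion. Cells received 30 nM of hsa-miR-511-5p mimic or of negative Control #1 mimic and were harvested on day 2, in medium with low serum. A miRNA mimic is a synthetic RNA that supplies a mature miRNA. Each of 2 independent experiments gave 1 array per mimic, so there were 2 arrays per treatment, and with 2 against 2 an exact two-sided permutation test cannot give a p below 0.333. One cell line, one dose and one day limit the model, and no array of untransfected cells was analysed here. Of 12 myeloid marker genes, 10 were on the array, and all 10 were well above background on all 4 arrays, among them CD33, CEBPA and CTSG. Of the markers of other cell types, none of 3 collagen genes of fibroblasts was above background on any array, nor were EPCAM, KRT19 and CDH1, while KRT8, CD3D, PAX5 and HBB, among others, were above background on all 4.

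A ribosome consists of a small subunit, which reads the mRNA, and a large subunit, which forms the peptide bond. Each holds ribosomal RNA and many proteins that are present once per particle, except the stalk proteins P1 and P2. Cells make these proteins in step with each other. A shared feature of their mRNAs is the 5′ terminal oligopyrimidine (TOP) tract, a run of C and T that starts at the first base, through which mTOR and the protein LARP1 set their translation. Because their mRNAs are abundant and vary little, ribosomal protein genes are widely used as references in RT-qPCR. RPL13A served as a reference in the study.

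The sequence of the miRNA, shown because its seed sets which transcripts it can pair with, is given in RefSeq for GRCh38.p14 at chr10:17845122-17845142 on the plus strand. Bases 2 to 8, the seed, are in capitals.
hsa-miR-511-5p: gUGUCUUUugcucugcaguca

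The 7 letters complementary to the seed, AAAGACA, occurred in 1 of 160 ribosomal protein probes (0.625%) and in 331 of 34127 probes (0.970%), counted on the strand of the transcript. The probe was the dimmer of 2 for RPL13, a large subunit protein, and its log2 fold change (log2FC) with miR-511 was -0.02. A probe covers only 60 bases of a transcript, so this count says nothing about the rest.

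Of the 3 probes of RPL13A, 2 are shown because this gene was a reference. They lie on the plus strand of chromosome 19 in hg19, the first at chr19:49994724-49994783 and the second at chr19:49994072-49994306. The second is longer in the genome than its 60 bases, as a probe that crosses an intron is. The 23 capitals in the first mark the forward RT-qPCR primer of the study, which lies within that probe at bases 21 to 43.
RPL13A A_23_P90143: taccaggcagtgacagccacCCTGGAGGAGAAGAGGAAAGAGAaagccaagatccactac
RPL13A A_24_P272061: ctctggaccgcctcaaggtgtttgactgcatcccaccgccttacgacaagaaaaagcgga

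The files list transcripts of processed pseudogenes (RPL13AP5 among them) beside RPL13A for each of its 3 probes. Of the 158 ribosomal protein probes with an accession that matched RefSeq, 18 listed a transcript of another gene, mostly a pseudogene of RPL21, RPL13A, RPSA or RPS26. For these the source of the signal is uncertain. The coordinates of 1 of the 9 RPL21 probes lie on chromosome 10, whereas RefSeq places the gene on chromosome 13.

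Most genes of the common ribosome whose start was found had an annotated start whose first 5 bases were all C or T, as in a TOP tract. Some of the starts shown did not, such as those of RPS26, RPS7, RPL36AL and RPS27L. Those of RPS7 and RPL36AL do begin with C and T, but the run ends within the first 5 bases. Below are 40 bases around the start, 20 before it and 20 from it, from RefSeq (GRCh38.p14), 5′ to 3′ on the transcribed strand. Capitals mark the longest run of at least 6 pyrimidines that reaches within 5 bases of the start. The first 7 are members that the results below turn on, and the others are pairs of a common protein and its copy.
RPL13A start: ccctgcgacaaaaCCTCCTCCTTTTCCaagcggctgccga
RPLP0 start: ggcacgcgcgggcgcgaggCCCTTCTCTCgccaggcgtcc
RPLP2 start: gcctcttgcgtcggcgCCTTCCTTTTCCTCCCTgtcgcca
RPS6 start: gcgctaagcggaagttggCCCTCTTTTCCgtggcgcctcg
RPS7 start: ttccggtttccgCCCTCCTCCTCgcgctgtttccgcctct
RPS18 start: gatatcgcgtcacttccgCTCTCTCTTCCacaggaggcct
RPS26 start: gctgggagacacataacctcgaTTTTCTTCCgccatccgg
RPL22 start: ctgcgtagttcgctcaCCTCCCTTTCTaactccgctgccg
RPL22L1 start: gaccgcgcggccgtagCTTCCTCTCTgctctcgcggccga
RPL36A start: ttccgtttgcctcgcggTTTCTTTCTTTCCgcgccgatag
RPL36AL start: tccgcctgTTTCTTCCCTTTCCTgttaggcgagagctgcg
RPS27 start: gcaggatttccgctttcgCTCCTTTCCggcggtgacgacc
RPS27L start: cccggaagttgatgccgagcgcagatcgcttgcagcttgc

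Starts were found for 68 of the 85 genes. The first 5 bases were all C or T in 46 of 62 genes of the common ribosome (74.2%) and in 1 of 6 copies, against 6.34% of 27237 other genes. A run of at least 6 reaching within 5 bases of the start was found in 53 of 62 (85.5%), in 2 of 6 copies (RPL22L1 and RPL36AL) and in 26.1% of the other genes. No such run was found in these windows of RPS27L, RPL10L, RPL7L1 or RPL26L1. A gene with several annotated starts counted once if any start matched, and a match is a description of letters.

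Signal was high for most of the group. Values are log2 signals after quantile normalization of the 4 arrays, with the spots of a probe averaged. Ranked by signal within an array, the median ribosomal protein probe stood at 99.5% to 99.6% on each array. On average over the arrays, 113 of the 160 probes were in the top 1% and 143 in the top 5%, and 58 of the 100 brightest probes belonged to the group. The 160 probes are 0.469% of all probes and held between 18.3% and 18.9% of the summed signal of an array. This share was taken from signals before log2 and normalization, with marked spots kept. No spot of the group was saturated, and 2 were marked as outliers on the 4 arrays together. A rank describes the brightness of a probe, which depends on its binding as well as on the transcript, and gives no order of transcript levels between genes.

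**Figure D1:**
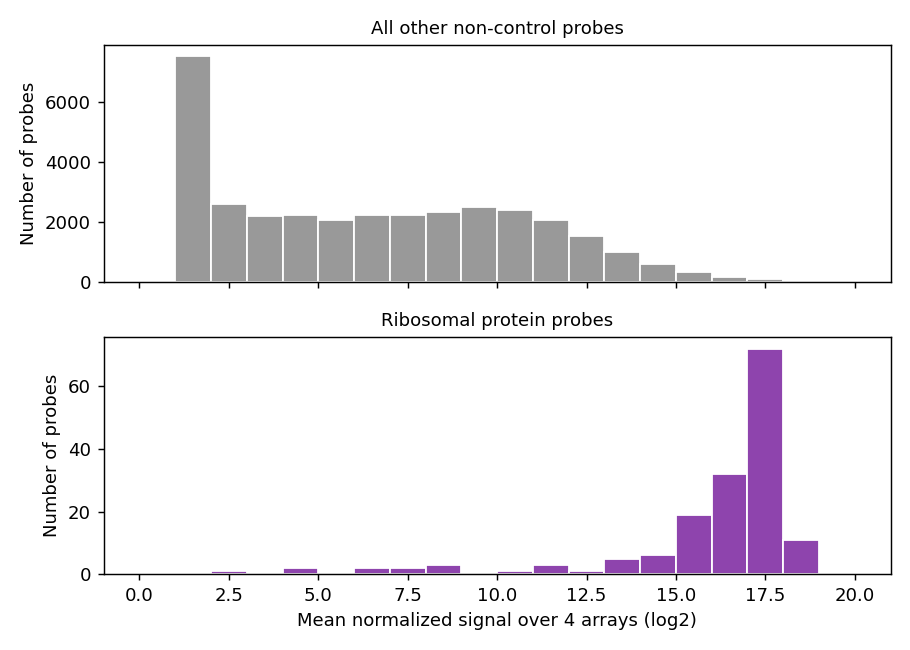
Number of probes (vertical axis) by mean normalized log2 signal over the 4 arrays (horizontal axis), for all other non-control probes (top) and the 160 ribosomal protein probes (bottom). Most ribosomal protein probes lie near the upper end, with a median of 17.05, and a small number lie below 13.

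At their brightest probe, 75 of the 85 genes were in the top 1% and 80 in the top 5%. The 5 outside were 4 copies and RPL27A. RPL3L, the copy of RPL3 known from muscle, ranked at 50.3%, RPL39L, the copy of RPL39 known from testis, at 82.5%, RPL7L1 at 94.3% and RPL26L1 at 94.7%. RPL10L, a copy inside the top 5%, ranked at 98.5%. Whether the probe of a copy also binds the transcript of its common partner was not tested. RPL27A, a protein of the large subunit, had 1 probe, which ranked at 60.6%. Other dim probes stood beside bright probes of the same gene: 1 of the 4 RPL10 probes ranked at 39.6%, and 1 of the 3 RPS14 probes at 63.2%. For RPL28 and RPS29, the dim probes (down to 37.8% and 65.5%) are assigned in the files to transcript variants of their own. A single RPL31 probe was above background on no array, and the remaining 159 probes passed the filter on dim probes. All but 1 of the 159 were well above background on all 4 arrays.

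Spread after quantile normalization was small for most members. This normalization gives the same value to the same rank on every array, and spread under other scaling is not given here. The SD of a probe over the 4 arrays had a median of 0.065 for the 159 probes, against 0.12 for all 22638 tested probes. Among probes with a mean of at least 15, it was 0.059 for 134 ribosomal protein probes and 0.077 for 569 others. These sets were not matched for brightness: 325 of the others had a mean between 15 and 16, but only 19 of the ribosomal protein probes.

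To find out whether ribosomal protein transcripts differed with miR-511, the treatments were compared with the moderated test of limma. None of the 159 probes passed the unadjusted threshold of 0.05 used in the study, neither higher nor lower, whereas 2.20% of all tested probes did (498 of 22638). After Benjamini-Hochberg adjustment no probe of the array passed (smallest adjusted p from limma 0.790). The smallest unadjusted p of the group was that of an RPL21 probe, 0.112, which was lower by 0.21. In a fit that blocked on the experiment, again 0 of 159 were called, against 3.95% of all tested probes. Without the second miR-511 array the count was 11 of 159 (6.92%), against 6.09% of all tested probes. That left the miR-511 array of experiment 1 alone, with the spread taken from the control arrays, so the 11 calls restate its own readings. They included both brighter probes of RPS26 and RPL31 and the RPLP2 probe described below. Without the first control array the count was 4 (2.52%, against 3.52% of all tested probes). It was 1 (0.629%) without the first miR-511 array and 1 without the second control array, against 2.79% and 2.28% of all tested probes.

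The median log2FC over the 159 probes was -0.019, and over all tested probes it was 0.0098. It was -0.020 in experiment 1 and -0.019 in experiment 2, where the medians of all tested probes were 0.030 and -0.00056. In bulk RNA of a culture, fewer cells with a transcript and less of it per cell cannot be told apart. Lower values were seen at 96 probes and higher ones at 63. Of the large subunit, 64 of 99 probes were lower (median -0.022), and of the small subunit 32 of 60 (median -0.011). Within 0.1 of no difference lay 116 probes (73.0%, against 59.1% of all tested probes), and 8 were beyond 0.5 (5.03%, against 3.64% of all tested probes). Between the experiments there was little likeness: 78 of 159 probes (49.1%) had the same sign in both, against 51.0% of all tested probes. Across the probes, which are not independent replicates, the differences of both experiments had a Pearson correlation of -0.24.

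**Figure D2:**
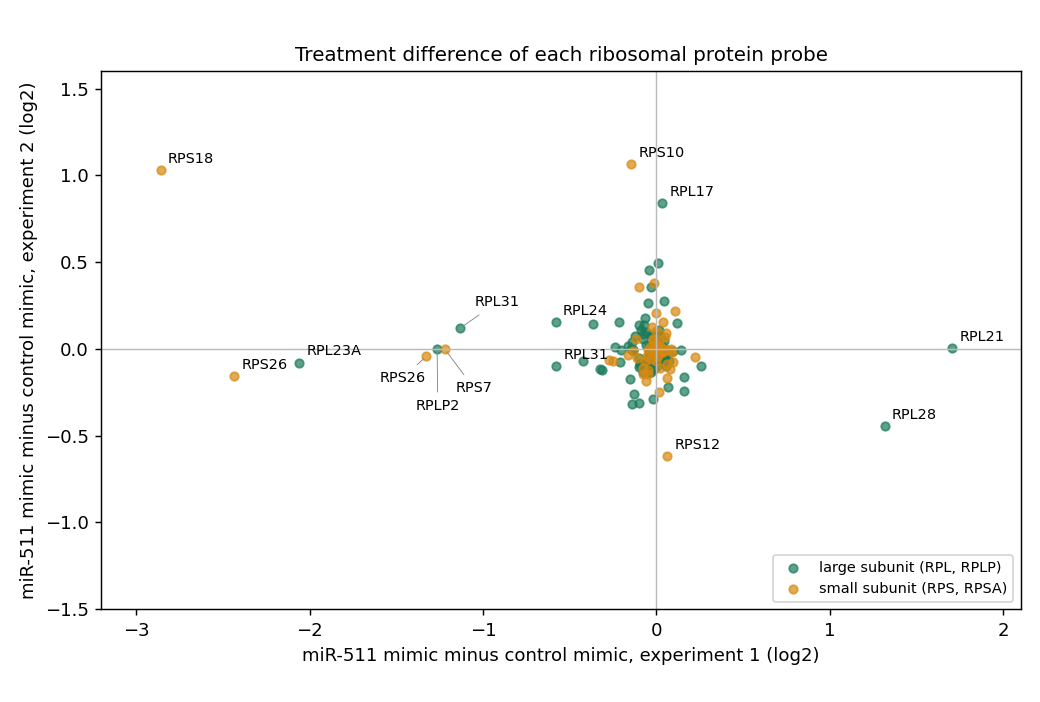
Difference between miR-511 and control mimic (log2) of each of the 159 tested ribosomal protein probes, in experiment 1 (horizontal axis) and experiment 2 (vertical axis), by subunit. Most points lie around 0 on both axes, and the named points, beyond 0.5 on an axis, lie away from 0 in one experiment and near it in the other, except RPS18 and RPL28.

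RPL13A, a protein of the large subunit, did not pass at any of its 3 probes. Its brightest probe, which holds the primer, read 17.79 with miR-511 and 17.99 with control mimic in experiment 1, and 17.98 and 17.99 in experiment 2. The miR-511 array of experiment 1 was thus 0.20 lower, and the other 3 were nearly equal. The log2FC was -0.10 (SE 0.11, 95% confidence interval -0.41 to 0.20). The second probe read 17.26 and 17.21 in experiment 1 and 17.22 and 17.30 in experiment 2, and the third 16.55 and 16.65, then 16.59 and 16.65. For these the log2FC was -0.01 (95% confidence interval -0.27 to 0.25) and -0.08 (-0.32 to 0.17). The groups overlapped at the second probe, and at the others the control arrays were the higher ones, by 0.20 at most. The 95% confidence intervals of the 3 probes include 0 and reach from -0.41 to 0.25.

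The proteins of the stalk recruit the elongation factors, and at RPLP1 and the brighter RPLP0 probe the control array was slightly higher in both experiments. RPLP0, the base of the stalk, read 18.22 with miR-511 and 18.28 with control mimic in experiment 1, and 18.19 and 18.28 in experiment 2, at its brighter probe (log2FC -0.08, SE 0.09). RPLP1 read 17.77 and 17.81, then 17.64 and 17.75 (log2FC -0.07, SE 0.10). RPLP2, measured by 1 probe, read 16.70 with miR-511 and 17.96 with control mimic in experiment 1, but 18.02 on both arrays of experiment 2. So 3 of its arrays were close together and 1 was lower by 1.32 than the median of the others. The log2FC of -0.63 had an SE of 0.47 and did not pass. RPSA, the small subunit protein also known as a laminin receptor, had 4 probes with log2FC between -0.05 and 0.0045, and RPS6, the substrate of S6 kinase, had -0.01 (SE 0.09).

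None of the copies passed in the treatment comparison, and the differences from their common partners were not tested. At the brightest probe the log2FC of the 8 copies lay between -0.11 (RPL26L1) and 0.06 (RPL36AL), with a median of -0.0053, and the median of the 77 common genes was -0.011. RPL22L1, the copy of RPL22, had 0.01 (SE 0.14), and RPL22 itself -0.08 (SE 0.13). RPL39L had 0.00 (SE 0.12) beside 0.01 (SE 0.11) of RPL39, and RPS27L -0.01 (SE 0.09) beside 0.10 (SE 0.10) of RPS27. RPL36AL had 0.06 beside 0.20 of RPL36A. RPL3L, at a dim signal of 5.89 to 6.60, had -0.03 (SE 0.29), and RPL3 0.03 (SE 0.10). RPL10L had -0.04 beside -0.0028 of RPL10, and RPL7L1 had 0.02 beside 0.0023 of RPL7. RPL26 had -0.08 (SE 0.10), where RPL26L1 had an SE of 0.15.

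Over the brightest probes of the 85 genes, 81 lay within 0.25 of no difference. The 3 largest rises were those of RPL36A (0.20, SE 0.21), RPL27A (0.13, SE 0.16) and RPS27 (0.10, SE 0.10). RPS26, RPLP2 and RPL31 had the 3 largest falls, and none of these 6 passed. RPL36A read 16.96 on the control array of experiment 2 and 17.41 to 17.50 on the others, and without that array its difference turned to -0.06. The difference of RPL27A became -0.01 without the second miR-511 array. In each of the 3 falls a single array was low, that of miR-511 in experiment 1, and without it the differences were -0.07 for RPS26, 0.03 for RPLP2 and -0.03 for RPL31.

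RPS26, a small subunit protein at the mRNA exit, read 14.73 with miR-511 in experiment 1 at its brightest probe. The control array of that experiment read 17.17, and experiment 2 gave 17.18 with miR-511 and 17.34 with control mimic. A second probe, elsewhere in the gene, read 13.94 and 15.27 in experiment 1 and 15.38 and 15.42 in experiment 2. Both bright probes were thus low on the same array, and the third, dim probe was not (7.24, 7.31, 7.32 and 7.46 in the same order). The mean log2FC was -1.30 (SE 0.86) and -0.68 (SE 0.51), and it was -0.16 and -0.04 in experiment 2.

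RPL31, a protein near the exit of the peptide tunnel, likewise had both tested probes low on the miR-511 array of experiment 1. The brighter read 16.83 there and 17.41 to 17.55 on the other arrays, and the dimmer read 16.09 and 17.22 to 17.44. In other genes only 1 of several probes was low. RPL23A, a binding partner of the signal recognition particle, read 13.40 there at 1 probe and 15.46 to 15.79 on the other arrays. At its brightest probe it read 17.85 to 17.92 on all 4.

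RPS7, a small subunit protein, shows the same with probes whose coordinates overlap. The probes lie on chromosome 2, the first at chr2:3627779-3627838 and the second at chr2:3627728-3627787 (hg19, plus strand), and share 9 positions, in capitals. There, counted from the first shared base, they differ by C3G, so they cannot both match hg19 at that base. Whether they bind the same transcript was not tested.
RPS7 A_23_P141549: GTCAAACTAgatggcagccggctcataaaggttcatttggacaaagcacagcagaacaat
RPS7 A_32_P20367: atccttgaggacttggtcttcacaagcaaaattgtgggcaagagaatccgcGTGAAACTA

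The first read 17.64 with miR-511 and 17.62 with control mimic in experiment 1, and 17.70 on both arrays of experiment 2. The second read 15.54 and 16.76 in experiment 1 and 16.74 on both arrays of experiment 2. The 2 probes assigned to RPS7 thus gave a difference of 0.03 at the first and -1.22 at the second in experiment 1.

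RPS18, at the head of the small subunit, had the largest difference within 1 experiment. Its dimmer probe read 15.22 with miR-511 and 18.08 with control mimic in experiment 1, and 17.63 and 16.60 in experiment 2. The difference was -2.86 in the first and 1.03 in the second experiment, while the brighter probe had -0.08 and -0.11. RPL21 had the largest rise of the group, 1.71 in experiment 1, where the control array read 15.25 and the other 3 arrays 16.95 to 17.28. The 8 other RPL21 probes differed by -0.32 to 0.03 in that experiment. Between the mean log2FC of the tested probes of a gene, the range exceeded 1 in RPL21, RPL23A and RPS26, and was under 0.25 in 29 of 39 genes with several tested probes.

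**Figure D3:**
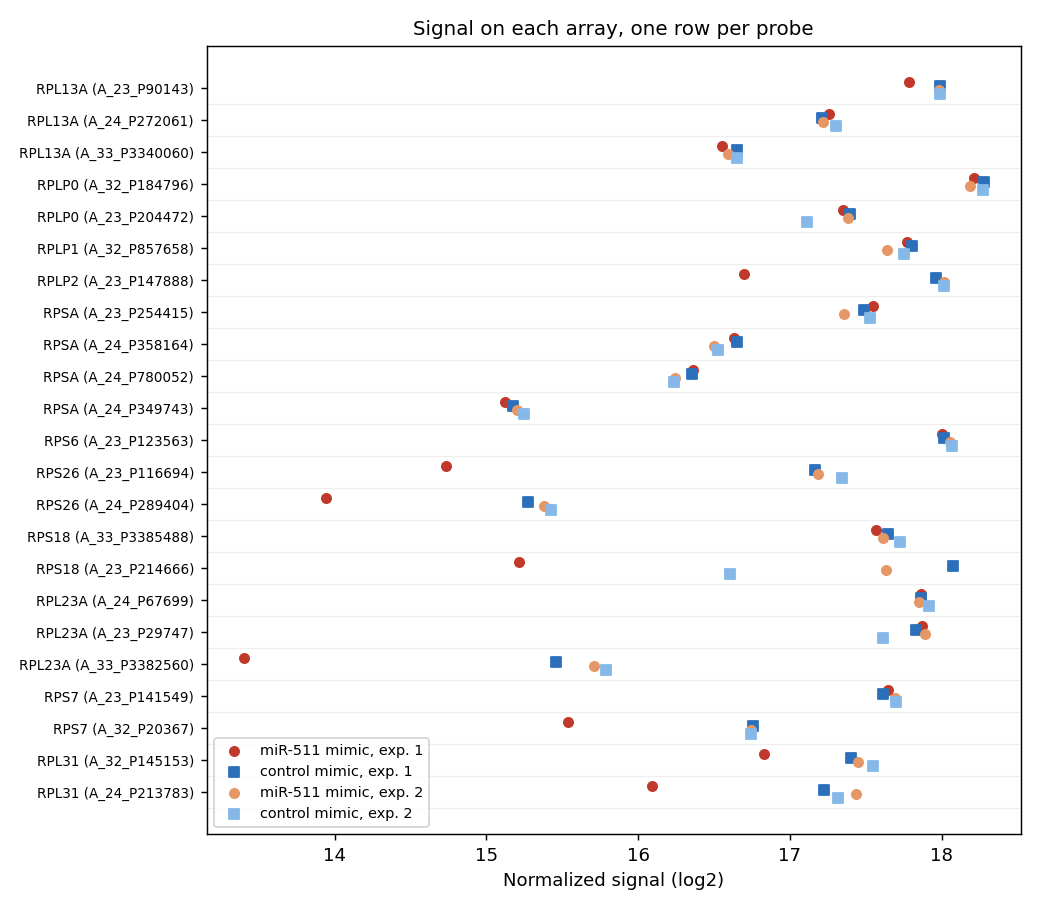
Normalized log2 signal (horizontal axis) on each array for 23 probes, 1 row per probe: all probes above 13 of 11 ribosomal protein genes. Circles are miR-511 and squares control mimic, dark in experiment 1 and light in experiment 2. RPL13A, RPSA and RPS6 lie close together, and RPLP2, RPS26, RPL31 and single probes of RPL23A, RPS7 and RPS18 have a low point with miR-511 in experiment 1.

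How common such single low arrays were was counted over all probes. A probe counted when 3 arrays lay within 0.5 of each other and the other array lay more than 0.5 below their median. This held for 14 of the 159 ribosomal protein probes (8.81%, in 12 genes), 7.20% of all tested probes and 4.92% of the 569 other bright probes. The miR-511 array of experiment 1 held 8 of the 14, in RPL23A, RPL24, RPL31, RPLP2, RPS7 and RPS26. These are 5.03% of the ribosomal protein probes, and the same array was the low one at 3.30% of all tested probes and 2.64% of the other bright probes. The control array of experiment 2 held 3 (RPL17, RPL37A and RPS10), the miR-511 array of that experiment 2 (RPS12 and a dim RPL28 probe) and the control array of experiment 1 the RPL21 probe. A single high array was seen once, at a dim RPS29 probe. The probes counted here are single spots. Marked spots had been left out beforehand, so none of these could be one marked as an outlier by the scanner software. The miR-511 array of experiment 1 also had the fewest probes well above background, 22116, against 22732 to 23635 on the others, and the part of array quality in these values was not tested.

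The scatter between identical spots was measured at 3 probes printed 10 times. The probe of RPLP0, on the minus strand at chr12:120636503-120636676 of hg19, has the following sequence.
RPLP0 A_23_P204472: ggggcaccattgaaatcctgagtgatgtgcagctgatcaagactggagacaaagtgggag

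Its 10 spots had an SD of 0.10 with miR-511 and 0.070 with control mimic in experiment 1, and of 0.086 and 0.57 in experiment 2. On the last array 3 of the 10 spots were low, at 15.79, 16.43 and 16.92, and the other spots lay between 17.37 and 17.54. The mean of the spots gave a difference of 0.27 between the mimics in experiment 2, and the median of the spots gave -0.0071. For RPS6 the SD of the spots was 0.074 to 0.15 and for RPL30 0.038 to 0.076. RPS6 had 9 spots on each array of experiment 2, 1 being left out as marked. Most of the 159 probes are a single spot, for which this scatter cannot be measured.

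**Figure D4:**
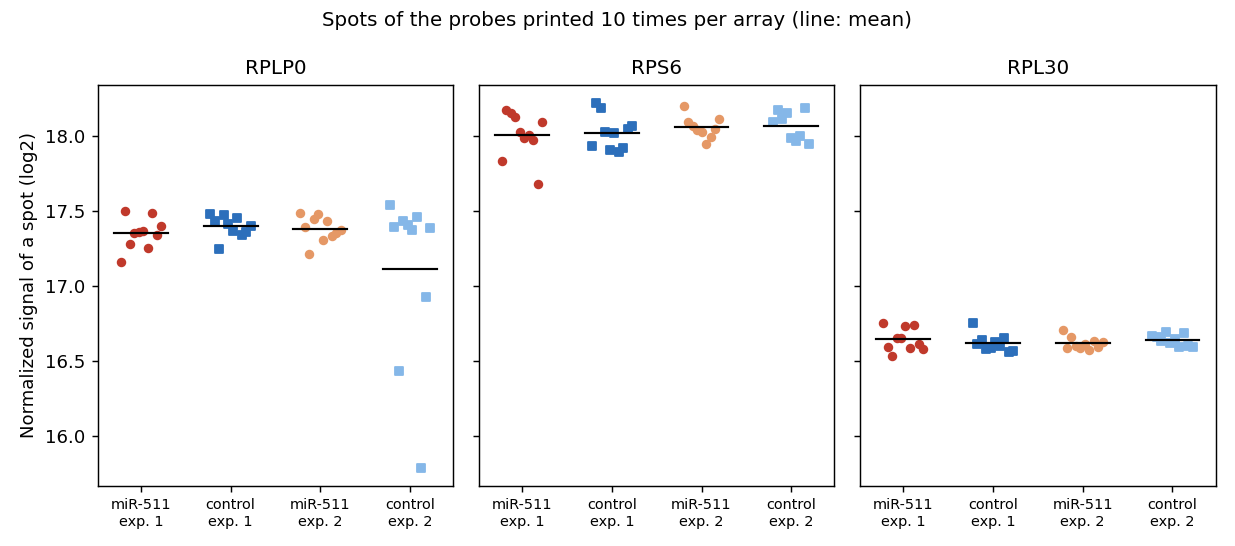
Normalized log2 signal of each spot (vertical axis) of the RPLP0, RPS6 and RPL30 probes printed 10 times, by array, with the mean as a line. Spots of an array lie close together, except 3 low RPLP0 spots on the control array of experiment 2.

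Whether the experiments differed in ribosomal protein transcripts was tested in the same way, experiment 2 against experiment 1, each with both mimics. Of the 159 probes, 10 passed the unadjusted threshold (6.29%), beside 13.6% of all tested probes. Of these 10, each of another gene, 3 were higher and 7 lower in experiment 2. After Benjamini-Hochberg adjustment none passed (smallest adjusted p from limma 0.259 in the group, 0.215 on the array). The median difference was -0.017, against -0.0094 over all tested probes. It was -0.011 with miR-511 and -0.013 with control mimic. With the treatment as a block, 5 probes were called (3.14%, against 11.6% of all tested probes), those of RPL3L, RPL27A, RPL28, RPL36AL and RPS29.

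Several of the 10 were dim probes or copies. RPL3L rose from 5.89 and 6.10 in experiment 1 to 6.60 and 6.45 in experiment 2 (0.53, SE 0.11; miR-511 first). RPL22L1 rose from 15.04 and 15.02 to 15.26 and 15.25 (0.22, SE 0.07). RPL36AL fell from 16.49 and 16.56 to 16.22 and 16.04 (-0.39, SE 0.09). RPL36A, its partner, had -0.29 (SE 0.17) and did not pass. The only probe of RPL27A rose by 0.28 (SE 0.09), and dim probes of RPL28, RPS29 and RPS14 fell by 0.53, 0.44 and 0.25, while brighter probes of these genes changed by no more than 0.1. RPL13 fell by 0.21 at its dimmer probe, whereas its brighter probe had 0.05 (SE 0.07). Among bright probes, those of RPS3, at the mRNA entry of the small subunit, and RPL8, at the peptidyl transferase center, had -0.25 (SE 0.08) and -0.23 (SE 0.08).

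The largest differences of brightest probes between the experiments were rises of RPS26 (1.31, SE 0.87), RPLP2 (0.68, SE 0.45) and RPL3L, and falls of RPS12 (-0.49, SE 0.23), RPL36AL and RPL36A. Those of RPS26, RPLP2 and RPS12 did not pass, and they rest on the single low arrays described above. Without the first control array 16 probes were called (10.1%), RPS26 and RPLP2 among them, against 14.2% of all tested probes. Experiment 1 was then its miR-511 array alone. Without the second control array 3 were called (1.89%), without the first miR-511 array 4 (2.52%) and without the second miR-511 array 9 (5.66%), against 8.23%, 9.65% and 10.2% of all tested probes. RPL13A had differences of 0.10, 0.03 and 0.02 at its probes. None of these passed.

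**Figure D5:**
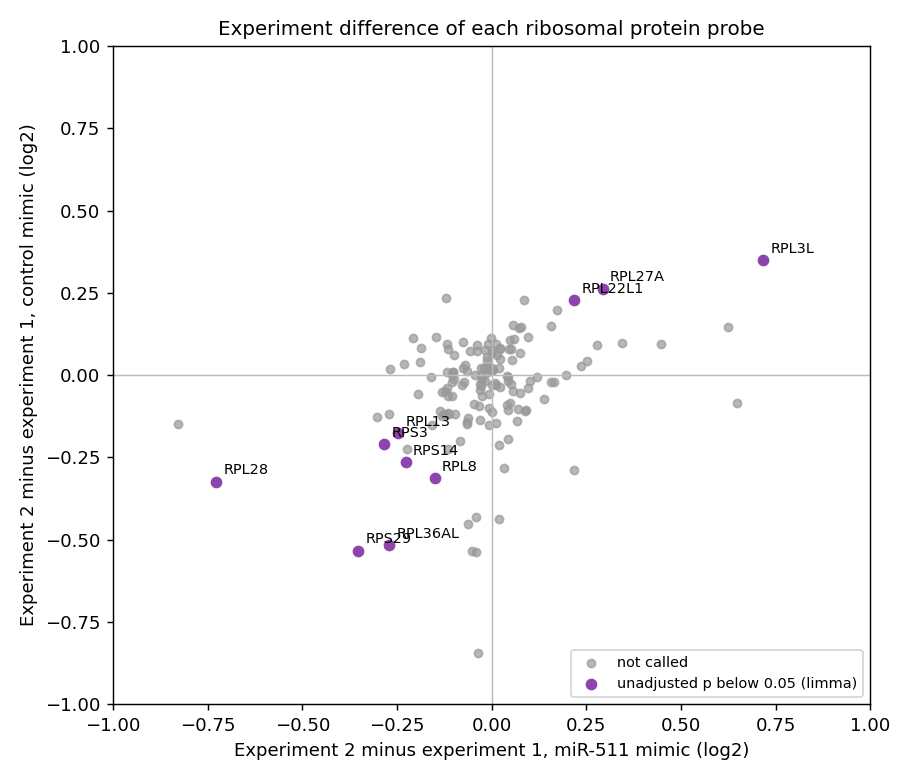
Difference between experiment 2 and experiment 1 (log2) of the tested ribosomal protein probes with miR-511 mimic (horizontal axis) and control mimic (vertical axis). The 10 probes past the unadjusted threshold are named and lie in the quadrants where both mimics moved one way. Another 10 probes lie beyond the axes, which end at 1.

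A change that all ribosomal protein transcripts share could be hidden by normalization, so the scale was set against RNA spike-ins. These are E1A transcripts added in fixed amounts, of which 8 of 10 were well above background on all arrays. Before any scaling, the median ribosomal protein probe differed by -0.30 in experiment 1 and by 0.10 in experiment 2, the median tested probe by -0.24 and 0.12, and the spike-ins by -0.20 and 0.13. Scaled to the spike-ins, the median ribosomal protein probe differed by -0.097 and -0.033 and the median tested probe by -0.032 and -0.017. Scaled to the 75th percentile, the values were -0.059 and -0.0027 for the group and 0.0056 and 0.013 for all tested probes. Between the experiments the sign of the group's median depended on the scaling, being -0.017 after quantile normalization and 0.017 with spike-ins.

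Other genes of translation were described by lists, each gene at its brightest tested probe. None of 16 tested elongation factors and other TOP mRNAs passed in the treatment comparison (median -0.026), nor did any of 27 initiation factors (-0.0055), 32 ribosome biogenesis factors (0.0085) or 14 genes that control growth and TOP mRNA translation (0.0088). EEF1A1, the elongation factor that delivers tRNA, had a log2FC of -0.13 (SE 0.11), and TPT1, a TOP mRNA, -0.15 (SE 0.12). Dimmer probes of EEF1A1 had -0.15 to 0.07, and a dimmer probe of TPT1 had 0.05. NPM1, a nucleolar chaperone, had 0.01 (SE 0.09). MTOR, whose kinase acts on TOP mRNAs, had 0.03 (SE 0.09) and LARP1 0.01 (SE 0.10). Between the experiments VIM, EIF4A2 and RPS6KA1 were lower in experiment 2 by 0.38, 0.28 and 0.20, and MLST8 was higher by 0.35, each past the unadjusted threshold. These are 4 of 89 tested genes of the lists (4.49%), against 13.6% of all tested probes. Of their dimmer probes, 1 of EEF1A1 passed as well (-0.33), and 1 of MLST8 (0.46).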

How the data were processed

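The authors deposited the scanner output of 4 single-color Agilent whole genome arrays (Feature Extraction 10.5.1.1, hg19 annotation). Its processed intensity is background-subtracted and detrended within an array, with no scaling between arrays. A second deposited table holds quantile-normalized log2 values and served as an alternative (smallest Spearman correlation with the scanner intensities 1).

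In R 4.3.3, marked spots were left out, the log2 of the processed intensity was quantile normalized over 43118 non-control spots, and the spots of a probe were averaged. Tested were the 22638 probes with 4 values whose signal, for at least 1 of the treatments, was well above background on both arrays. limma 3.58.1 (lmFit, eBayes) compared treatments with no term for the experiment, and experiments, with two-sided p-values. Calls used an unadjusted p below 0.05 and Benjamini-Hochberg adjustment over all tested probes. The functions were tested on simulated data.

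The labels pair the arrays by experiment, and the deviations of same-numbered arrays had a correlation of 0.271. The group, the gene lists and the named genes were chosen with earlier results of these data known. Named were RPL13A, stalk proteins, RPSA, pairs of copies, every called probe, the 3 largest rises and falls at the brightest probe, and genes whose probes differ by over 1; other genes, such as RPS7 and RPS18, were named after their values were seen. Alternatives were other scaling (75th percentile, spike-ins), normexp background correction, other filters, marked spots kept, the deposited table, brightest probes, an intensity trend, blocks, a plain two-sided t-test of averaged probes (for arrays the study names a plain t-test for replicate probes alone) and leaving out each array. Some items are not reported here. The number of arrays limits the precision.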

Additional observations from a re-analysis of the deposited data

Results flagged for a closer look

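At 2 probes both mimic differences of the experiments were larger than 0.25 and opposite in sign, a difference between experiments that was not tested. At the dimmer RPS18 probe, miR-511 minus control mimic was -2.86 in experiment 1 and 1.03 in experiment 2, and experiment 2 minus experiment 1 was 2.42 with miR-511 and -1.47 with control mimic. The brighter RPS18 probe had -0.08 and -0.11 between the mimics.

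At a dim RPL28 probe, well above background on 3 of 4 arrays, the mimics differed by 1.32 in experiment 1 and -0.44 in experiment 2, and the experiments by -1.20 with miR-511 and 0.56 with control mimic. The brightest RPL28 probe had a log2FC of 0.03 (SE 0.10).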

How the results depend on the processing

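No ribosomal protein probe passed adjustment in either comparison under any alternative run. Before adjustment, 0 of 159 were called between the mimics; 1 (RPL21) was called with spike-in scaling, 3 (RPL5, RPL15, RPL21) after normexp correction and 3 (RPL10A, RPL23, RPLP0) by a plain t-test of the averaged probes, where 2.20%, 1.17% and 3.13% of all tested probes were called. Leaving out each array in turn gave 1 to 11. In the paired fit with the replicate block the count was 0, with 894 of all tested probes called. The median of -0.019 was -0.028 with 75th percentile scaling, -0.062 with spike-ins, -0.017 after normexp correction, -0.018 without the filter, -0.018 with marked spots kept, -0.020 in the deposited table and -0.011 over brightest probes, and -0.042 to -0.0023 with an array left out. These medians counted as moved because those of the experiments differed by only 0.00042 (SD).

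Between the experiments, 10 calls became 6 over brightest probes, 5 with the treatment as a block and 3 to 16 with an array left out. The median of -0.017 became 0.021 with 75th percentile scaling, 0.017 with spike-ins, -0.015 after normexp correction, -0.019 in the deposited table and -0.0083 over brightest probes, and lay between -0.022 and 0.0057 with an array left out. The RPL13A difference of 0.10 turned to -0.0036 without the first miR-511 array, within a range of -0.0036 to 0.20 with an array left out. Of 182 values of followed probes under alternatives, 129 kept direction and call, 51 lost a call and 1, RPS26 without the second miR-511 array, gained one (-2.52). The cause was not tested. With 2 arrays per group, the median half-width of a 95% confidence interval was 0.28 between the mimics.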
